A study of Mus musculus with 18 samples.

Results

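The control ankle joint was compared with the control dorsal root ganglia (DRG), the clusters of sensory nerve cell bodies beside the spinal cord, to describe which tissues the joint sample held and how much nerve it held beside the ganglia. The comparison used 6 of the 18 libraries of the series, 3 of ankle joint and 3 of DRG, chosen by their labelled tissue and control treatment and joined gene by gene on the Ensembl identifier. The animals were C57BL/6 mice aged 10 weeks, and both groups shared 1 treatment, in which 100 µl of phosphate-buffered saline (PBS) was given under the skin at the right ankle joint and tissue was taken 8 h later. The labels title these libraries WT and call them untreated, while the treatment protocol says PBS. No allele or transgene is named in the labels. If the protocol holds, the joints were injected and not intact. The labels say neither which tissue was trimmed away from the joint, nor which ganglia were taken or from which side, nor whether each library was 1 animal. P-values measure the spread between these samples, which may be technical. Bulk RNA of total tissue was sequenced, so that fewer cells of a type and less RNA per cell cannot be told apart in any value below.

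An ankle is a composite organ. Synovial fibroblasts and macrophages line its cavity and secrete the lubricant of the fluid, chondrocytes cover the bone ends with a matrix of type II collagen and aggrecan, osteoblasts make bone that osteocytes inhabit and osteoclasts resorb, and marrow inside the small bones makes blood cells. Tendons, skin with hair, fat, vessels and small muscles surround these tissues. The joint also receives the axons of sensory neurons, whose cell bodies with most of their messenger RNA lie in the ganglia, and of sympathetic neurons, whose cell bodies lie elsewhere. Both kinds of axon are accompanied by Schwann cells, whose nuclei and RNA are in the nerve itself. Inside a ganglion, satellite glia wrap each cell body.

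The ankle libraries held 38812815, 24088253 and 13818618 counts, and the DRG libraries 36013926, 22491225 and 17638144. The floor for a gene with no counts was taken as 3 counts. Over these totals, 3 counts were worth 0.0773 to 0.217 CPM, counts scaled to library size, in the ankle and 0.0833 to 0.1701 in the DRG. The CPM values of genes and lists use the TMM-scaled library size instead. On that scale 3 counts were worth 0.0687, 0.112 and 0.192 CPM in ankle controls 1, 2 and 3. Bounds and intervals given for genes with few counts pool the counts and library sizes of the 3 libraries of each tissue. In a bound the 3 counts are thus set against the summed library size, a lower level than 3 counts in any 1 library. Such bounds and intervals cover counting error only. On log2 CPM the libraries correlated at 0.982 to 0.991 within the ankle, 0.992 to 0.997 within the DRG and 0.622 to 0.662 between the tissues. Some libraries stood apart from the others of their tissue. Ankle control 2 was high in neutrophil, osteoclast and B cell genes and in stress and glucocorticoid response genes, while erythroid genes were highest in ankle control 3. In hair genes ankle control 1 was low and ankle control 3 high, and DRG control 3 was low in muscle and connective tissue genes. Each tissue was deposited as its own table, so a difference between tables cannot be told apart from one between tissues. Xist, the transcript of the inactive X chromosome, had 18 counts in the ankle libraries and 4 in the DRG libraries together, while the Y-linked genes Ddx3y, Eif2s3y, Kdm5d and Uty were expressed in all 6 at 19.98 CPM or more.

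After a filter on low counts, 18778 genes were tested with edgeR. At an adjusted p below 0.05, 7879 genes (42.0%) were higher in the ankle and 7314 (38.9%) lower, together 80.9% of the genes tested, and the 3 libraries of each tissue did not overlap for 84.4% of them. A call at this threshold therefore says little about a marker list. A second rule asked for the same adjusted p and a difference of at least 8-fold, which 2290 genes (12.2%) met with a higher level in the ankle and 1919 (10.2%) with a lower level. The median log2 fold change, ankle over DRG, was 0.08 over all genes tested. Of genes at 1 CPM or more in every ankle library, 481 were below 0.1 CPM in every DRG library and 297 had no DRG count at all. In the other direction the numbers were 269 and 108.

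The genes that took the most counts in the ankle were those of matrix and skin. Beside mitochondrial and translation genes they were Prg4, which encodes the joint lubricant lubricin, the type I collagen genes Col1a1 and Col1a2, the fibronectin gene Fn1, the actin-severing gelsolin gene Gsn, the small proteoglycan gene Dcn, the type III collagen gene Col3a1, the collagen-binding Sparc, the lipid enzyme gene Scd1, the keratin genes Krt1, Krt2 and Krt10, the nuclear noncoding RNA Neat1 and the apolipoprotein gene Apoe. In the DRG they were the genes of axons, among them the microtubule-associated Map1b and Map1a, the neurofilament genes Nefl, Nefm and Nefh, the neuronal tubulin Tubb3 and the axonal motor Kif1a. Fn1 had 5926, 3631 and 4415 CPM in the 3 ankle libraries, against 140.3, 185 and 35.5 in the 3 DRG libraries (log2 fold change 5.27, SE 0.77, adjusted p = 0.00232). Map1b had 81.4, 71.02 and 72.4 CPM in the ankle, against 7734, 7632 and 9442 in the DRG (log2 fold change -6.78, SE 0.14, adjusted p = 1.15e-09). Neither pair of groups overlapped, and Apoe, which had 2026, 1978 and 1885 CPM in the ankle and 2114, 2472 and 2543 in the DRG, differed by far less (log2 fold change -0.28, SE 0.09, adjusted p = 0.0232).

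At the far end of the range were genes with no count at all in the other tissue. The 15 largest increases were Krt5, Calm4, Flg, Hrnr, Krt77, Flg2, Dsc3, Krtap7-1, Krtap8-1, Serpina3j, Sdr16c6, Cyp2b19, Krt34, Krt2 and Lce1m, many of them genes of the epidermis or hair, and 14 of them had no DRG count. The desmosome gene Dsc3 had 416, 417 and 493 CPM in the ankle and 0 counts in the DRG, at least 9739-fold higher. The 15 largest decreases, among them Gpr158, Cdk5r2, Rab3c, St8sia3, Rit2 and Svop, included 10 genes with no ankle count. Slc17a6, the vesicular glutamate transporter of sensory neurons, had 0 counts in the ankle, against 304, 292 and 334 CPM in the DRG, at least 8807-fold lower. The serotonin-gated channel gene Htr3a also had 0 ankle counts, against 147, 151 and 145 CPM, and Pirt, a regulator of the heat channel Trpv1, had 4 counts against 78271.

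Promoter sequences from RefSeq (GRCm38.p6, from 250 bases before to 50 after the start, 1 per gene) were available for 13341 of the genes tested. They were searched for the TATAAA box, a core promoter element, and the shares below are a description with no test. It was found on either strand in 21.02% of the 1470 promoters of genes at least 8-fold higher in the ankle and 9.52% of the 1292 of genes at least 8-fold lower, against 9.02% of the 13341 promoters of tested genes and 14.1% of all 27025 promoters. The same sets differed in base composition, with a median GC content of 53% in the promoters of genes at least 8-fold higher and 59% in those of genes at least 8-fold lower. Among the lists below the box was in 6 of 9 hair follicle promoters and 6 of 12 of the differentiated epidermis, but in 1 of 4 of basal keratinocytes and 0 of 4 of the sebaceous gland. Lists outside the skin reached like shares, such as osteoblasts with 3 of 5 and later neutrophils with 5 of 10. GATAAG, the letters bound by the erythroid factor Gata1, was in 8 of 10 erythroid promoters, against 7.49% of all. The motifs do not overlap, and a match is a description and not a site of binding. The promoters below show an epidermal keratin, skeletal muscle actin, adult beta-globin and the peripheral neuronal filament peripherin, with TATAAA or GATAAG in capitals.
Krt10, chr11:99389315-99389614, minus strand: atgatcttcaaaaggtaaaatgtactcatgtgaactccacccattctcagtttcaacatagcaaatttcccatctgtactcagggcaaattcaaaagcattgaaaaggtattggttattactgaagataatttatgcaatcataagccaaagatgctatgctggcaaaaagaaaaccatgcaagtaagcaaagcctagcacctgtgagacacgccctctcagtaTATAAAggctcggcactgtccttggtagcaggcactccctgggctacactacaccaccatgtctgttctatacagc
Acta1, chr8:123894726-123895025, minus strand: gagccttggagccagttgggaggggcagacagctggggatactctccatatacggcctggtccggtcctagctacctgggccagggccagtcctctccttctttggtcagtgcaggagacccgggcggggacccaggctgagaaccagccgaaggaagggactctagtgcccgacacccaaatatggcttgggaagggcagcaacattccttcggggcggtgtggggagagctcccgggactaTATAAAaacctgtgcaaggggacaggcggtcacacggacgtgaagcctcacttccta
Hbb-bs, chr7:103827879-103828178, minus strand: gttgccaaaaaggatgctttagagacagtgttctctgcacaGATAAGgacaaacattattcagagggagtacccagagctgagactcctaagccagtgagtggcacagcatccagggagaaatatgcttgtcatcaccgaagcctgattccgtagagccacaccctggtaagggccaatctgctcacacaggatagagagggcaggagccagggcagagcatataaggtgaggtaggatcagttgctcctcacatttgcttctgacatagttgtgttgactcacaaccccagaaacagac
Prph, chr15:99054924-99055223, plus strand: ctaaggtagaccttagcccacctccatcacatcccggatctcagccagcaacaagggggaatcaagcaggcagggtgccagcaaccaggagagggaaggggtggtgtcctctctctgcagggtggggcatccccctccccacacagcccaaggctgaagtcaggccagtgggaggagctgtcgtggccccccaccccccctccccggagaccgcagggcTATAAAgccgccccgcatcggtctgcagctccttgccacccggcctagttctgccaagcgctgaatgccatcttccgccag
The TATAAA box began 26 bases before the annotated start in Krt10, 7 before it in Acta1 and 31 before it in Prph, and in Hbb-bs the capitals mark GATAAG.

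**Figure D1:**
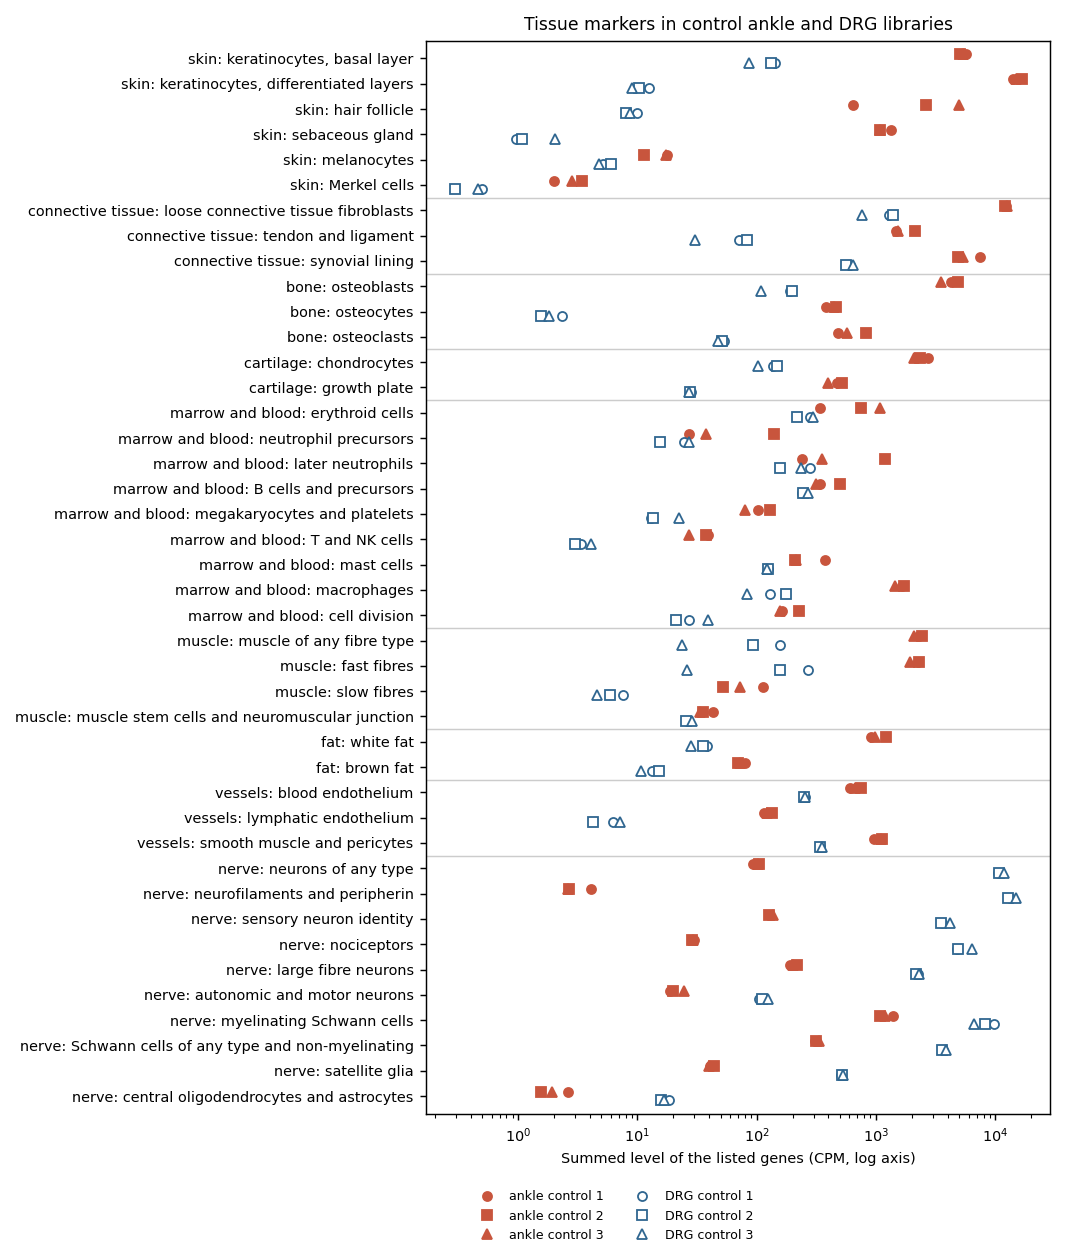
Summed level of each marker list in CPM on a log axis, with 1 point per library (filled red, ankle; open blue, DRG; the shape gives the replicate). Skin, connective tissue, bone, cartilage, muscle and fat lists lie to the right in the ankle, neuronal and glial lists to the right in the DRG, and neutrophil and erythroid lists lie near each other.

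Among the listed tissues, skin genes took the largest share of counts in the joint, a rank that depends on which genes were listed and how many. In ankle control 1 the connective tissue lists came close, at 2.40% of all counts. The skin lists together held 2.46, 2.84 and 2.97% of all counts in the 3 ankle libraries, against 0.0155, 0.0142 and 0.00961% in the 3 DRG libraries. All 8 genes of basal keratinocytes, the dividing layer of the epidermis, were higher in the ankle and 7 passed 8-fold (median log2 fold change 10.91). Krt14, their type I keratin, had 1949, 1553 and 1583 CPM in the ankle, against 0.0929, 0.0491 and 0.262 in the DRG, and its partner Krt5 had 1767, 1569 and 1789 CPM, against 0 counts in the DRG, at least 38715-fold higher. Both keratins were high in each ankle library and at or near 0 in each DRG library. Trp63, the transcription factor of the basal layer, had 135, 174 and 197 CPM in the ankle and 0.743, 0.491 and 0.8499 in the DRG (log2 fold change 7.92, SE 0.23, adjusted p = 9.86e-09). The exception in size was the hemidesmosome integrin Itgb4, which had 229, 193 and 196 CPM in the ankle, against 142, 129 and 83.5 in the DRG (log2 fold change 0.80, SE 0.19, adjusted p = 0.00535), and which Schwann cells also make.

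All 15 genes of the differentiated epidermal layers passed 8-fold (median log2 fold change 10.80, or 10.76 with the genes that lacked DRG counts at their bound). Krt10 had 3696, 4194 and 3721 CPM in the ankle, against 2.54, 1.82 and 2.22 in the DRG (log2 fold change 10.76, SE 0.17, adjusted p = 4.1e-10). Krt1, its partner, had 2187, 2740.4 and 1949 CPM, against 1.67, 0.884 and 1.896, and Lor, the loricrin gene of the cornified envelope, 1682, 2272 and 1789 CPM, against 0.341, 0.442 and 0.327. The joints were close to each other and far from the ganglia for all 3 genes. The filaggrin family genes Flg, Flg2 and Hrnr, the cornified envelope gene Ivl and the protease gene Casp14 had no DRG count. Krt2, a keratin of tail, ear and sole skin, had 2969, 2471 and 2757 CPM in the ankle and 3 counts in the DRG, a ratio of 62846 (95% counting interval 21505 to 304751). The 6 sebaceous gland genes were all at least 8-fold higher too, with Krt79, a keratin of the gland duct, at 851, 663 and 658 CPM in the ankle, against 0.248, 0.147 and 0.262 in the DRG.

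Hair follicle genes differed more between joints than any other list. All 10 measured genes were at least 8-fold higher in the ankle (the hair keratin Krt85 was not analysed here), with a median log2 fold change of 10.36, or 9.69 at the bounds. Their summed level was 643, 2637 and 4929 CPM in the 3 ankle libraries, against 10, 8.06 and 8.76 in the 3 DRG libraries, so the joints spread 7.66-fold with ankle control 1 lowest and ankle control 3 highest. Tchh, the trichohyalin gene of the inner root sheath, had 189, 1073 and 2028 CPM in the ankle and 3.44, 1.72 and 1.05 in the DRG (log2 fold change 8.93, SE 1.35, adjusted p = 0.00313). Krt71, the inner root sheath keratin, had 157, 619 and 1065 CPM in the ankle and 2 counts in the DRG. Ankle control 1 was lowest and ankle control 3 highest for both, which was not so for the sebaceous and differentiated epidermal sums. The cortex keratins Krt31, Krt33b and Krt35 had no DRG count, and their calls rested on the libraries used: without ankle control 2 their adjusted p passed 0.05, and over all alternatives it reached 0.1705, 0.164 and 0.158. The number of hair follicle genes called was 7 without ankle control 2, DRG control 1 or DRG control 3, and 9 without ankle control 1 or DRG control 2. Hair keratin-associated genes of the same kind, Krtap7-1 and Krtap8-1, also had no DRG count. Krtap7-1 had 57.4, 274 and 858 CPM in the ankle, and Krtap8-1 had 54.2, 249 and 768 CPM.

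Genes of pigment and touch cells were at low levels. Of 7 melanocyte genes, 4 were tested, 3 were higher in the ankle and 1 lower. Dct, a melanin enzyme, had 7.35, 3.51 and 5.45 CPM in the ankle and 4 counts in the DRG, while Tyrp1 had 2.49, 2.58 and 3.4 CPM in the ankle and 4.09, 5.06 and 3.73 in the DRG (log2 fold change -0.62, SE 0.23, adjusted p = 0.032), a call lost under 7 of the alternatives (adjusted p up to 0.130). Of 4 genes of Merkel cells, the touch receptor cells of skin, both tested ones were higher in the ankle and 1 of them at least 8-fold. The simple-epithelium keratin genes Krt18 and Krt8 had 93 and 85 ankle counts, against 3 and 15 DRG counts. Krt20 had 44 ankle counts, against 11, and the defining factor Atoh1 2, against 0, and neither was tested.

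Connective tissue carried the other large share, on average 2.24% of all ankle counts, against 0.162% of DRG counts. Of 9 fibroblast genes, 8 were at least 8-fold higher (median log2 fold change 3.46). Dcn had 4757, 3793 and 4259.8 CPM in the ankle and 498, 497 and 263 in the DRG (log2 fold change 3.35, SE 0.27, adjusted p = 2.09e-05), and Pdgfra, the growth factor receptor that marks fibroblasts, 257, 255 and 242 CPM in the ankle and 25.6, 27.8 and 13.99 in the DRG. These genes were thus well above 0 in the DRG, where they were lowest in DRG control 3. The elastic fibre gene Mfap5, at 54.2, 55.9 and 54.6 CPM in the ankle and 71.1, 60.8 and 38.8 in the DRG, did not pass the test (adjusted p = 0.802) and was called lower in the ankle without DRG control 3. Of 7 tendon and ligament genes, 5 were at least 8-fold higher. Tnmd, the tendon gene tenomodulin, had 33.8, 36.6 and 38.6 CPM in the ankle, against 0.248, 0.295 and 0 in the DRG (log2 fold change 7.44, SE 0.35, adjusted p = 1.55e-07). The fibril-binding Fmod had 507, 773 and 682 CPM, against 16.6, 32.2 and 1.83, with the 3 ganglia spread more widely than the 3 joints. The tendon transcription factor genes Scx and Mkx differed by less than the spread between replicates, with 9.43, 8.41 and 14.5 CPM for Scx in the ankle, against 9.97, 12.2 and 10.7 in the DRG (adjusted p = 0.883), and 10.1, 10.8 and 9.56 for Mkx, against 9.45, 8.698 and 10 (adjusted p = 0.47).

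The synovial lining was represented by Prg4, which had 6852, 4573 and 4949 CPM in the ankle and 21.2, 35.7 and 6.08 in the DRG (log2 fold change 8.01, SE 0.83, adjusted p = 0.000584). The joints and ganglia were far apart. Of the 6 lining genes, 4 were at least 8-fold higher. The chloride channel gene Clic5 had 326, 160.3 and 154 CPM in the ankle, against 8.58, 6.34 and 6.21 in the DRG, and the hyaluronan synthase gene Has1 39.8, 24.1 and 28.8 CPM, against 0.6504, 0.786 and 1.44. Vsig4, a complement receptor of resident macrophages, had 54.5, 27.3 and 27.6 CPM in the ankle and 2 DRG counts. Prg4, Clic5, Has1 and Vsig4 all had their highest value in ankle control 1. Cd55, a complement regulator used as a marker of lining fibroblasts, was lower in the ankle, at 130.3, 91.7 and 109 CPM, against 513, 458 and 569.6 in the DRG (log2 fold change -2.22, SE 0.14, adjusted p = 9.6e-07). Tspan15 was at 60.1, 35.2 and 48.3 CPM, against 65.1, 64.5 and 61.8, with an adjusted p of 0.0552 that ranged up to 0.179 and fell below 0.05 under 6 of the alternatives.

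All 10 osteoblast genes were higher in the ankle, 8 of them at least 8-fold (median log2 fold change 5.05). Bglap, the osteocalcin gene of mature osteoblasts, had 102, 57.3 and 29.9 CPM in the ankle and 0.03097, 0.344 and 0 in the DRG (log2 fold change 9.001, SE 0.96, adjusted p = 0.000453). Bglap and Bglap2 are near-identical neighbours, so counts may be split between them. Ibsp, the bone sialoprotein gene, had 305, 359.5 and 257 CPM, against 7.15, 8.501 and 6.603, and Sp7, the osteoblast transcription factor, 46.5, 37.5 and 22.7 CPM, against 0.279, 0.295 and 0.588. Col1a1, which tendon and skin also make, had 3649.7, 4272 and 3070.4 CPM in the ankle, against 164, 166 and 83.6 in the DRG (log2 fold change 4.73, SE 0.32, adjusted p = 1.49e-05). All 4 genes were lowest in ankle control 3, Bglap and Sp7 by the widest margin.

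Osteocyte genes stood apart further. The 5 tested of 6 were all at least 8-fold higher (median log2 fold change 8.05). Sost, which encodes the Wnt inhibitor sclerostin, had 143, 121 and 183 CPM in the ankle and 2 counts in the DRG, a ratio of 4872 (95% counting interval 1348 to 40235). Mepe had 95.8, 110.2 and 112 CPM in the ankle and 4 DRG counts, and Dmp1, a mineralization gene, 58.1, 132 and 59.3 CPM, against 1.05, 1.03 and 1.31. The phosphate hormone gene Fgf23 was near the floor in both tissues, with 21 ankle counts and 23 DRG counts. Of 8 osteoclast genes tested, 6 were at least 8-fold higher. Ctsk, the cathepsin that degrades bone collagen, had 280.2, 494 and 351 CPM in the ankle, against 7.65, 8.06 and 4.97 in the DRG (log2 fold change 5.75, SE 0.31, adjusted p = 3.99e-06). The acid phosphatase gene Acp5 had 51.8, 158 and 76.6 CPM, against 0.712, 3.39 and 1.57. Both were highest in ankle control 2. Dcstamp, needed for osteoclast fusion, reached 2.29, 3.997 and 1.92 CPM in the ankle, against 11 counts in all in the DRG. Tnfrsf11a, the RANK receptor gene of osteoclast precursors, was lower in the ankle, at 24.3, 22.2 and 17.5 CPM, against 30.3, 28.1 and 31.3 in the DRG (log2 fold change -0.48, SE 0.13, adjusted p = 0.00866).

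Cartilage genes took 0.320% of ankle counts and 0.0140% of DRG counts. Of 14 chondrocyte genes tested, 11 were higher, 9 of them at least 8-fold, and 2 were lower (median log2 fold change 4.13). Acan, the aggrecan gene, had 143, 141 and 109.8 CPM in the ankle and 3.84, 3.19 and 2.48 in the DRG (log2 fold change 5.34, SE 0.18, adjusted p = 1.89e-08). Col2a1, the main collagen of cartilage, had 60.4, 44.8 and 43.8 CPM, against 8.67, 6.39 and 3.53 (log2 fold change 2.97, SE 0.31, adjusted p = 8.14e-05). Per length these are 65.8 TPM (transcript abundance scaled to exon length) for Acan and 20.1 for Col2a1 in the ankle, below Comp at 1323, Chad at 1437 and Cytl1 at 987 TPM. Comp, a matrix protein of cartilage and tendon, had 1271, 1004 and 870.4 CPM in the ankle, against 31, 42.3 and 14.5 in the DRG, and Chad, which encodes chondroadherin, 689, 656 and 593 CPM, against 5.64, 7.76 and 2.48. The 3 joints were close to each other for both.

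Other members of the list lay on both sides. Ucma, a gene of growing cartilage, had 2.88, 2.54 and 1.54 CPM in the ankle and no DRG count, and the proteoglycan gene Snorc 5.61, 3.66 and 3.91 CPM in the ankle, against 7 counts in the DRG (log2 fold change 5.32, SE 0.78, adjusted p = 0.000302). The matrilin genes Matn1 and Matn3 had 2 and 25 counts in the ankle, and 2 and 0 in the DRG. Hapln1, a link protein that the perineuronal matrix also uses, was lower in the ankle at 18.1, 23.5 and 20.2 CPM, against 38.7, 40.05 and 46.03 in the DRG (log2 fold change -1.01, SE 0.12, adjusted p = 6.27e-05). The chondromodulin gene Cnmd was lower too, at 2.47, 0.934 and 2.12 CPM, against 15.8, 14.7 and 13.01 (log2 fold change -2.97, SE 0.32, adjusted p = 2.77e-05). All 5 growth plate genes were higher in the ankle. Col10a1, the collagen of hypertrophic cartilage, had 167, 68.1 and 138 CPM in the ankle, against 0.929, 0.688 and 0.8499 in the DRG (log2 fold change 7.21, SE 0.48, adjusted p = 2.82e-05). The hedgehog ligand gene Ihh had 7.26, 11.5 and 7.89 CPM, against 0.434, 0.295 and 0.196. Mmp13, a collagenase of hypertrophic chondrocytes and osteoblasts, had 161, 343 and 168 CPM, against 0.496, 0.491 and 0.262.

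Erythroid genes differed less between joint and ganglion than those of skin or bone. Of 12 erythroid genes tested, 6 were higher in the ankle but only the erythropoietin receptor gene Epor passed 8-fold (median log2 fold change 1.06). Hbb-bs, the adult beta-globin whose promoter is printed above, had 177, 385 and 627 CPM in the ankle, against 136, 104 and 138 in the DRG (log2 fold change 1.65, SE 0.50, adjusted p = 0.0314), and Hba-a1 112, 224 and 316 CPM, against 97.8, 77.2 and 98.5. The counts of Hba-a1 and its near copy Hba-a2 cannot be told apart with certainty. The groups did not overlap for these globins, with ankle control 1 the closest joint to the ganglia. The number of erythroid genes called higher was 2 without ankle control 2, DRG control 1 or DRG control 2 and 3 without DRG control 3, and 1 was called lower without ankle control 2.

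Neutrophil genes were of the same order in joint and ganglion, except in 1 joint. Of 7 precursor genes, 2 were higher in the ankle and none passed 8-fold, and of 10 genes of later neutrophils 1 was higher and none passed 8-fold. Elane, the neutrophil elastase gene, had 4.14, 24.4 and 8.28 CPM in the ankle, against 4.43, 2.56 and 4.05 in the DRG (log2 fold change 1.73, SE 0.70, adjusted p = 0.0628), and S100a9, a calprotectin subunit, 85.8, 342 and 96.03 CPM, against 75.1, 38.9 and 54.9 (log2 fold change 1.63, SE 0.70, adjusted p = 0.0887). The middle ankle value was the outlying one in both. The sum over the later neutrophil genes was 241, 1190.4 and 355 CPM in the ankle and 282, 158 and 236 in the DRG, so ankle control 1 lay within the range of the ganglia. The ratio of precursor to later genes was 0.113, 0.117 and 0.106 in the ankle, against 0.0869, 0.0985 and 0.114 in the DRG, so this proportion overlapped. The calls were unstable: without ankle control 1, 5 precursor genes and 2 later genes were called higher, DESeq2 called 4 and 4, and without any 1 of the DRG libraries 1 precursor gene was called. Without ankle control 2, 3 precursor genes were called higher and 1 lower, and 1 later gene higher. The mean sum of the later genes was then 298 CPM in the ankle, against 225 in the DRG, or 1.32-fold in place of 2.64-fold, and that of the precursor genes 1.45-fold in place of 3.04-fold.

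Lymphoid and resident immune cell lists gave wider differences by their median gene, but not all did so by their sums. The summed level in the ankle was 1.53-fold that of the DRG for B cell genes and 2.14-fold for mast cell genes. It was 9.96-fold for T and NK cell genes and 12.5-fold for macrophage genes. Of 12 B cell genes tested, 11 were higher in the ankle, 10 of them at least 8-fold (median log2 fold change 3.84). Cd79a, part of the B cell receptor, had 17.5, 35.5 and 24.4 CPM in the ankle, against 2.32, 2.46 and 3.07 in the DRG (log2 fold change 3.31, SE 0.28, adjusted p = 7.64e-06). Rag1, part of the recombinase that developing lymphocytes use in marrow, had 2.31, 7.88 and 7.76 CPM in the ankle, against 0.372, 0.442 and 0.523 in the DRG. Vpreb1, part of the surrogate light chain of B cell precursors, had 1.21, 2.17 and 1.41 CPM in the ankle and 3 counts in the DRG. Ebf1, a B cell factor that other cells also use, was lower in the ankle at 71.3, 65.4 and 67.8 CPM, against 191, 189 and 199 in the DRG (log2 fold change -1.50, SE 0.07, adjusted p = 1.16e-07). All 9 T and NK cell genes were higher, 4 of them at least 8-fold, at low levels such as 2.08, 2.17 and 1.73 CPM for Cd3e in the ankle, against 0.279, 0.491 and 0.392 in the DRG. Pf4, the platelet factor gene, had 67.04, 64.3 and 54.98 CPM in the ankle and 2.91, 3.19 and 3.33 in the DRG (log2 fold change 4.31, SE 0.13, adjusted p = 6.22e-09), and 5 of 8 megakaryocyte genes were higher, or 8 without DRG control 3.

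Of 13 macrophage genes, 12 were higher and 10 at least 8-fold (median log2 fold change 3.65). Csf1r, the receptor for macrophage growth factor, had 302, 259 and 261 CPM in the ankle, against 25.9, 27.03 and 14.1 in the DRG (log2 fold change 3.61, SE 0.25, adjusted p = 1.28e-05), and Mrc1, the mannose receptor of resident macrophages, 206, 202 and 199 CPM, against 19.6, 19.02 and 9.09. Adgre1, which encodes F4/80, was at 59.6, 41.3 and 38.6 CPM, against 7.03, 25.4 and 4.38. Its groups did not overlap, yet DRG control 2 was several times the other ganglia and the adjusted p was 0.0613, which ranged up to 0.160 and fell below 0.05 without that library. Of 8 mast cell genes, 7 were higher, 6 at least 8-fold. The carboxypeptidase gene Cpa3 had 53.7, 25.3 and 29.3 CPM in the ankle, against 4.21, 1.92 and 1.44 in the DRG. The chymase gene Mcpt4 had 105, 39.97 and 50.04 CPM, against 2.94, 2.85 and 0.392, and ankle control 1 was the highest joint for both. Kit, the stem cell factor receptor of mast cells, was lower in the ankle (log2 fold change -0.85, SE 0.10, adjusted p = 3.45e-05). All 10 cell division genes were higher in the ankle, with Mki67, a protein of dividing nuclei, at 62.1, 79.5 and 60.2 CPM, against 6.35, 5.01 and 12.2 in the DRG (log2 fold change 3.13, SE 0.34, adjusted p = 0.000158).

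**Figure D2:**
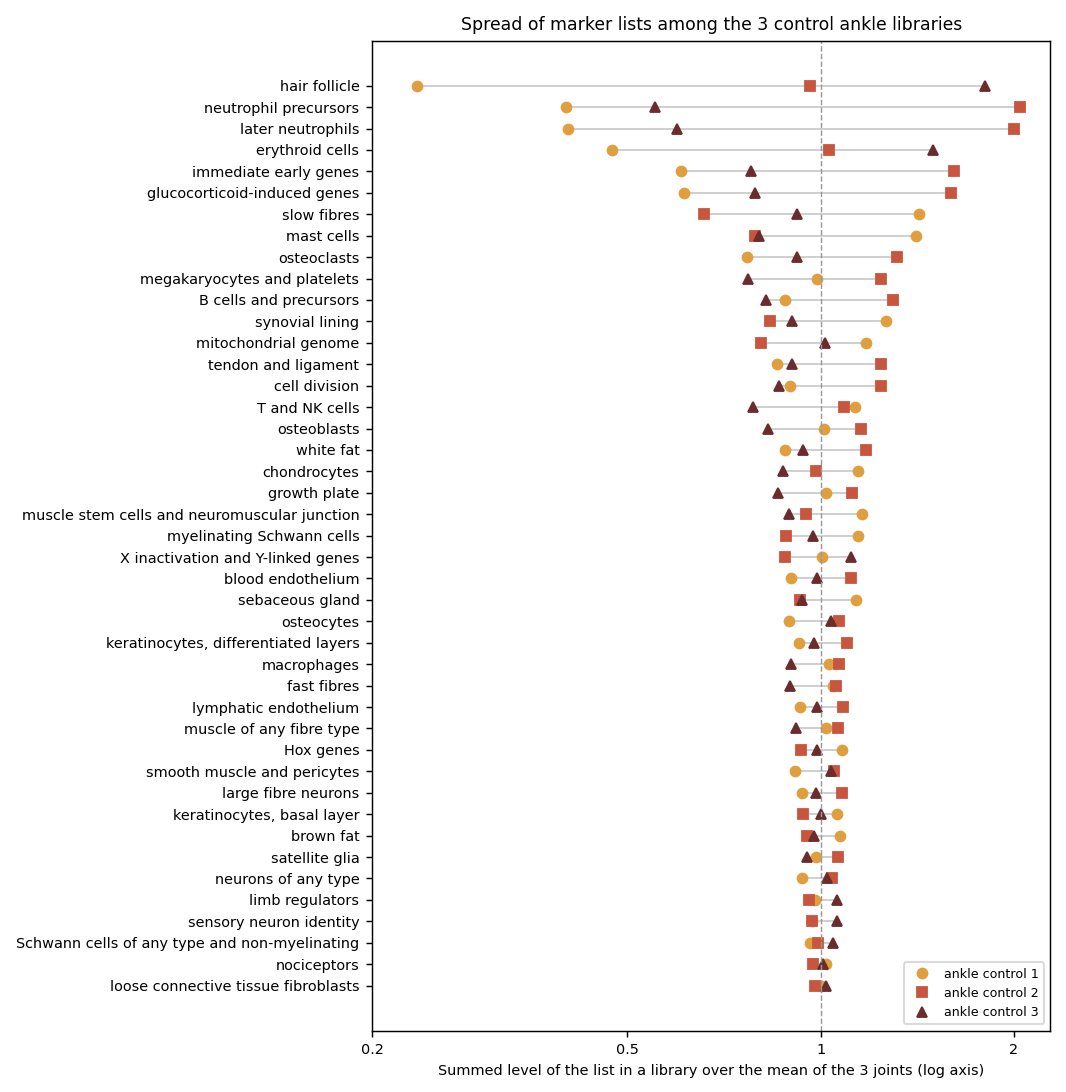
Summed level of each list in each control ankle library over the mean of the 3 joints, on a log axis, with 1 marker per library and lists ordered by their spread. Hair follicle genes spread 7.66-fold and the neutrophil lists 5.11-fold and 4.94-fold, while fibroblast, nociceptor and Schwann cell lists lie close to 1 in all 3 joints.

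Skeletal muscle RNA was plentiful in the joint sample and variable in the ganglia. All 12 genes of any fibre type were at least 8-fold higher in the ankle (median log2 fold change 4.81), and they summed to 2317, 2413 and 2081 CPM in the ankle and 157, 93.9 and 23.7 in the DRG. Acta1, the skeletal actin, had 607, 734 and 500.4 CPM in the ankle, against 52.1, 32.5 and 6.21 in the DRG (log2 fold change 4.32, SE 0.85, adjusted p = 0.00763). Ckm, the muscle creatine kinase, had 107, 142 and 95.4 CPM, against 18.4, 9.04 and 1.44, and Mb, the myoglobin gene, 135, 83.6 and 102 CPM, against 1.24, 0.835 and 0.131. The joints spread 1.16-fold in the sum, and the ganglia spread 6.61-fold with DRG control 3 lowest. Defining muscle genes were thus present in all 3 ganglia, and where this RNA came from was not tested. Of the 12 genes, 10 passed 8-fold without DRG control 2 and 9 without DRG control 3.

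**Figure D3:**
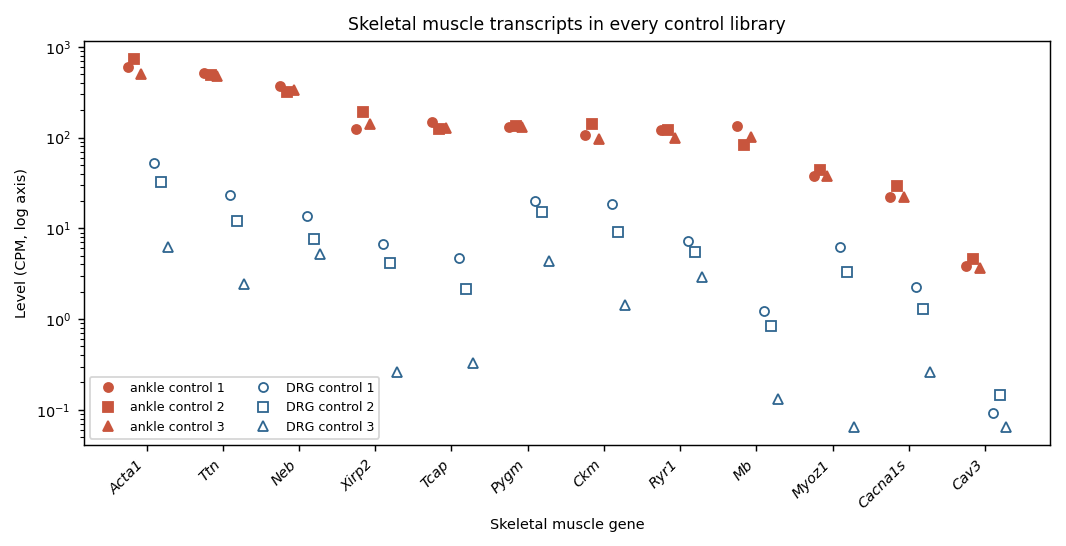
Level of 12 skeletal muscle genes in CPM on a log axis in every control library (filled red, ankle; open blue, DRG; the shape gives the replicate). The joints lie together at the top, and DRG control 3 lies below the other ganglia for all 12 genes, of which Cav3 had 7 counts in the 3 ganglia together.

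Fast fibre genes behaved likewise. Of 10 tested, 9 were higher in the ankle, or 4 without DRG control 2, and 8 were at least 8-fold higher. Per length, the myosin heavy chain genes stood at 282 TPM for Myh1 (type IIx), 179 for Myh4 (type IIb) and 107 for Myh2 (type IIa) in the ankle, against 5.78 for the slow gene Myh7. In the DRG the order was another, with 33.8 TPM for Myh4, 5.82 for Myh1, 1.05 for Myh2 and 0.149 for Myh7. Myh4 had 226, 371 and 269 CPM in the ankle, against 98.8, 61.03 and 8.24 in the DRG (log2 fold change 2.35, SE 0.92, adjusted p = 0.0705, 0.167 at most over the alternatives), and Myh2 259, 169 and 186 CPM, against 4.12, 1.92 and 0.131 (log2 fold change 6.46, SE 0.78, adjusted p = 0.00115). These 3 fast genes are near copies that share reads, so their split is uncertain. Without DRG control 2, 4 fast fibre genes were called higher and 3 of them passed 8-fold.

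The slow fibre genes were higher in 6 of 7 cases. Myh7 had 16.7, 10.8 and 12.4 CPM in the ankle, against 0.867, 0.197 and 0 in the DRG (log2 fold change 4.93, SE 0.67, adjusted p = 0.000397), and Tnnt1, the slow troponin T, 30.1, 11.7 and 19.1 CPM, against 0.712, 0.5897 and 0.327. Their sum relative to the fast genes was 0.0495, 0.0226 and 0.0372 in the ankle, against 0.0281, 0.0377 and 0.174 in the DRG, and overlapped. Among genes of muscle stem cells and of the nerve-muscle contact, 5 of 8 tested were higher and 2 lower. Chrna1, a subunit of the muscle acetylcholine receptor, had 11.5, 6.31 and 4.23 CPM in the ankle, against 1.86, 1.62 and 1.57 in the DRG (log2 fold change 2.14, SE 0.37, adjusted p = 0.000587). Chrne, the adult subunit gene, had 4.097, 1.46 and 2.76 CPM, against 0.403, 0.147 and 0.262. The satellite cell factor Pax7 had 22 ankle counts and 2 DRG counts.

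Fat cell genes were expressed in every joint. Of 10 white fat genes, 9 were higher in the ankle and 8 at least 8-fold (median log2 fold change 6.95). Adipoq, the adiponectin gene made by fat cells, had 54.2, 63.7 and 57.5 CPM in the ankle, against 0.619, 0.246 and 0.327 in the DRG (log2 fold change 7.06, SE 0.23, adjusted p = 1.15e-08). Plin1, which coats lipid droplets, had 92.97, 78.5 and 92.6 CPM, against 0.9602, 0.344 and 0.262, and the leptin gene Lep 12.5, 24.9 and 15.8 CPM, against 4 counts over the 3 ganglia. The 3 joints differed little for Adipoq and Plin1, and ankle control 2 was highest for Lep and Cidec. Of the brown fat genes, Ucp1, the uncoupling protein that defines brown fat cells, had 5 ankle counts and 18 DRG counts. Cidea, which is shared with sebaceous cells, had 47.7, 43.4 and 39.5 CPM in the ankle, against 1.86, 2.11 and 1.896 in the DRG (log2 fold change 4.48, SE 0.14, adjusted p = 7.59e-09), and Dio2, a thyroid hormone activating enzyme, 30.1, 26.6 and 31.8 CPM, against 2.04, 3.39 and 2.48. Otop1 was lower in the ankle, at 1.21, 0.336 and 0.7698 CPM, against 9.23, 9.39 and 5.82 (log2 fold change -3.34, SE 0.41, adjusted p = 7.71e-05).

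All 12 genes of blood endothelium were higher in the ankle, but none passed 8-fold (median log2 fold change 1.44). Pecam1 had 125, 185 and 162 CPM in the ankle, against 26.1, 26.4 and 29.1 in the DRG (log2 fold change 2.53, SE 0.15, adjusted p = 4.92e-07), and Cdh5, the endothelial cadherin, 58.9, 82.4 and 69.7 CPM, against 29.5, 26.3 and 21.1. Their sums were close within each tissue, 608, 753 and 667 CPM in the ankle and 254, 248 and 253 in the DRG. All 4 lymphatic genes passed 8-fold. Prox1, the lymphatic master factor, had 6.18, 6.28 and 5.902 CPM in the ankle, against 0.558, 0.147 and 0.0654 in the DRG (log2 fold change 4.31, SE 0.47, adjusted p = 2.66e-05), and Ccl21a, the chemokine of lymphatic vessels, 47.1, 30.7 and 39.9 CPM, against 1.77, 1.23 and 1.57. Of 11 smooth muscle and pericyte genes, 9 were higher and 4 at least 8-fold. Rgs5, a pericyte gene, had 216, 239 and 235 CPM in the ankle, against 190.1, 185 and 227 in the DRG, with an adjusted p of 0.0829.

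Neuronal transcripts were at a small fraction of their ganglion level in the joint. All 14 genes of neurons of any type were at least 8-fold lower in the ankle (median log2 fold change -8.51), with a median ankle level of 0.282% of the DRG level. Tubb3 had 4.85, 8.78 and 8.596 CPM in the ankle, against 2639.9, 2819 and 3227 in the DRG (log2 fold change -8.64, SE 0.28, adjusted p = 6.8e-08). Snap25, a protein of transmitter release, had 0.298, 0.149 and 0.0641 CPM, against 1666, 1439 and 1608, and Stmn2, a protein of growing and regenerating axons, 10.5, 12.1 and 12 CPM, against 1552, 1607 and 1710.4. The groups were far apart for each, and what remained differed between genes: Stmn2 kept 0.711% and Snap25 0.0108% of the DRG level. The highest share was that of Thy1, 10.8%, which fibroblasts, T cells and vessel cells also make.

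All 5 neurofilament genes, which encode the axon skeleton, were at least 8-fold lower. Nefm had 11 counts in the ankle, against 354072 in the DRG, or 0.114, 0.112 and 0.192 CPM, against 5143, 4945 and 5713 (log2 fold change -15.27, SE 0.19, adjusted p = 2.75e-10). Nefl had 7 ankle counts, against 178660, and Nefh 39, against 256170. Prph, the peripherin gene, whose promoter is printed above, had 3.14, 1.87 and 1.67 CPM in the ankle and 1742, 1870.2 and 2106 in the DRG, 0.117% of the ganglion level. Of the exon bases, 32.8% in Nefl and 19.2% in Nefm are shared with other gene models.

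Genes that give sensory neurons their identity were all lower in the ankle, 10 of 12 at least 8-fold (median log2 fold change -7.18). Prdm12, a factor of nociceptor development, had no ankle count, against 159, 150.4 and 169 CPM in the DRG, at least 4549.6-fold lower. The homeobox factor Prrxl1 had none either, against 122, 126 and 149 CPM, at least 3699-fold lower. Avil, an actin regulator restricted to peripheral sensory neurons among neurons, had 3.94, 2.32 and 2.89 CPM in the ankle, against 896, 945 and 1037 in the DRG (log2 fold change -8.26, SE 0.21, adjusted p = 5.15e-09). The exceptions in size, Ntrk2 and Runx3, are also expressed outside neurons. Ntrk2 had 58.9, 67.7 and 71.3 CPM in the ankle, against 229, 230.1 and 254 (log2 fold change -1.85, SE 0.09, adjusted p = 1.67e-07).

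All 15 nociceptor genes, those of neurons that sense damage, heat and itch, were at least 8-fold lower (median log2 fold change -9.29, or -8.29 at the bounds). Scn10a, the sodium channel Nav1.8, had 3 counts in the ankle, against 106060 in the DRG. Mrgprd, a receptor of nonpeptidergic nociceptors, had no ankle count, against 194, 192 and 252 CPM in the DRG, at least 5916-fold lower. Calca, which encodes the peptide CGRP, had 0.435, 0.336 and 0.128 CPM in the ankle, against 1058, 1082 and 1552 (log2 fold change -11.79, SE 0.31, adjusted p = 1.77e-08). Trpv1, the heat and capsaicin channel, kept more, at 1.53, 1.76 and 1.92 CPM, against 139, 144 and 162, or 1.17% (log2 fold change -6.44, SE 0.12, adjusted p = 7.73e-10). Of 6 genes of large fibre neurons, 5 were lower, among them the touch channel Piezo2 at 14.7, 14.2 and 16.4 CPM in the ankle, against 691, 682 and 802 in the DRG (log2 fold change -5.59, SE 0.11, adjusted p = 8.92e-10). Pvalb, which marks muscle-sensing neurons and is also a calcium buffer of fast muscle fibres, was higher in the ankle at 134, 157 and 134 CPM, against 88.2, 78.7 and 65.1 (log2 fold change 0.87, SE 0.12, adjusted p = 0.000135), a call lost when all 18 libraries were fitted (adjusted p = 0.066).

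Schwann cell transcripts were lower in the ankle by much less. Of 15 myelinating Schwann cell genes tested, 13 were lower, 10 of them at least 8-fold (median log2 fold change -3.60). Over the 16 genes measured, with the untested Pmp2, the median ankle level was 8.48% of the DRG level. Prx, the periaxin gene, had 46.1, 35.6 and 43.2 CPM in the ankle, against 748, 622 and 446 in the DRG (log2 fold change -3.86, SE 0.21, adjusted p = 1.52e-06), and Mbp, the myelin basic protein gene, 185, 155 and 179.8 CPM, against 2507, 2255 and 1679.7. Pmp22, a myelin gene that other cells also use, had 329.9, 303 and 321 CPM, against 2068, 1803 and 1602 (log2 fold change -2.52, SE 0.11, adjusted p = 6.01e-08). The joints were close to each other on each of these 3 genes, and DRG control 3 was the lowest ganglion for all 3. The exceptions were Egr2 and Fa2h, both higher in the ankle: Egr2, a myelin factor that skin and bone cells also make, had 49.8, 53.5 and 49.3 CPM, against 29.02, 24.7 and 23.1 (log2 fold change 0.99, SE 0.11, adjusted p = 2.56e-05). Fa2h, a lipid hydroxylase that sebaceous cells use too, had 509.9, 315 and 342 CPM, against 64.4, 52.5 and 55.3 (log2 fold change 2.76, SE 0.20, adjusted p = 6.27e-06). Pmp2 had 7 counts in each tissue and was not tested, and 86.9% of its exon bases are shared with another gene model.

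Of 12 genes of Schwann cells of any type, 11 were lower, 8 of them at least 8-fold, with a median ankle level of 11.6% of the DRG level. Sox10, the lineage factor, had 13.7, 11.02 and 11.6 CPM in the ankle, against 124, 112 and 102 in the DRG (log2 fold change -3.21, SE 0.12, adjusted p = 2.63e-08). Scn7a, a channel of nonmyelinating Schwann cells, had 55.2, 74.1 and 80.6 CPM, against 599.7, 559 and 539. Its change was at the 8-fold line (-3.02 on the log2 scale) and fell short of it with upper quartile scaling and without ankle control 1. Erbb3, the neuregulin receptor of Schwann cells, which epithelia share, was at 101, 108 and 109 CPM in the ankle and 101, 93.9 and 86.6 in the DRG (adjusted p = 0.0763). Of 6 satellite glia genes, 5 were at least 8-fold lower. Fabp7, a lipid carrier of these glia, had 0.343, 0.747 and 0.257 CPM, against 239, 233 and 226 (log2 fold change -8.98, SE 0.24, adjusted p = 7.34e-09), while Slc1a3, a glutamate transporter with wide expression, was higher in the ankle (log2 fold change 1.17, SE 0.10, adjusted p = 6.42e-06). The central glia genes Mog, Opalin and Olig2 had 5 counts or fewer in either tissue.

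The proportion of neuronal to myelin transcripts thus differed between the tissues. The sum over neurons of any type divided by that over myelinating Schwann cells was 0.0667, 0.0961 and 0.0855 in the ankle, against 1.08, 1.30 and 1.79 in the DRG, so the ankle mean was 5.95% of the DRG mean. The neurofilament sum over the same myelin sum was 0.00291, 0.00246 and 0.00221 in the ankle, against 1.36, 1.57 and 2.26 in the DRG. Both were lower in every joint than in any ganglion. These sums follow their largest members, Thy1 among the ankle neuronal genes and Fa2h among the ankle myelin genes. Both genes are also expressed outside nerve, and which cells of the joint gave their counts was not tested. With geometric means in place of sums, the ankle value of the neuronal to myelin ratio was 0.793% of that of the DRG.

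Autonomic and motor genes moved in both directions. Of 7 tested among 12, 3 were at least 8-fold higher in the ankle and 3 at least 8-fold lower. Slc6a2, the noradrenaline transporter of sympathetic neurons, had 10.6, 11.9 and 14.8 CPM in the ankle, against 0.465, 0.639 and 0.131 in the DRG (log2 fold change 4.82, SE 0.36, adjusted p = 2.06e-06). Npy, the neuropeptide Y gene of sympathetic neurons, had 5.65, 4.93 and 6.74 CPM, against 0.186, 0.197 and 0 (log2 fold change 5.27, SE 0.46, adjusted p = 5.73e-06), and Chat, which makes acetylcholine, 0.7095, 1.57 and 1.22 CPM, against 3 counts in the DRG. The joints were above the ganglia for all 3. The noradrenaline-synthesis genes that define sympathetic neurons were near 0 in the joint, with 8 counts for Th and 1 for Dbh in the ankle libraries together, against 6609 and 5 in the DRG libraries. The autonomic factor Phox2a had 22 ankle counts and none in the DRG. Th, which some touch neurons of the ganglion also express, stood at 92.5, 96.5 and 109 CPM there.

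Hox genes are arranged in 4 clusters, and those with higher numbers are used further back along the body and further out in the limb. Of 36 tested, 12 were higher in the ankle, 12 lower and 12 not called, and 7 and 2 passed 8-fold. Hoxa13, which patterns the hand and foot, had 13.8, 11.02 and 11.8 CPM in the ankle and no DRG count, at least 284-fold higher, and Hoxc12, Hoxc13 and Hoxd13 also had no DRG count. Hoxa11 had 13.8, 12.96 and 12.3 CPM in the ankle, against 0.588, 0.344 and 0.0654 in the DRG. Hoxc11 had 16.5, 12.1 and 10.8 CPM, against 0.124, 0.0491 and 0. Every tested gene numbered 11 to 13 was at least 8-fold higher in the ankle, and Hoxd10 and Hoxc10 were called higher. Hoxa10, which had 36, 30 and 28.4 CPM, against 39.1, 37.8 and 33.9, was not called (adjusted p = 0.0945).

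**Figure D4:**
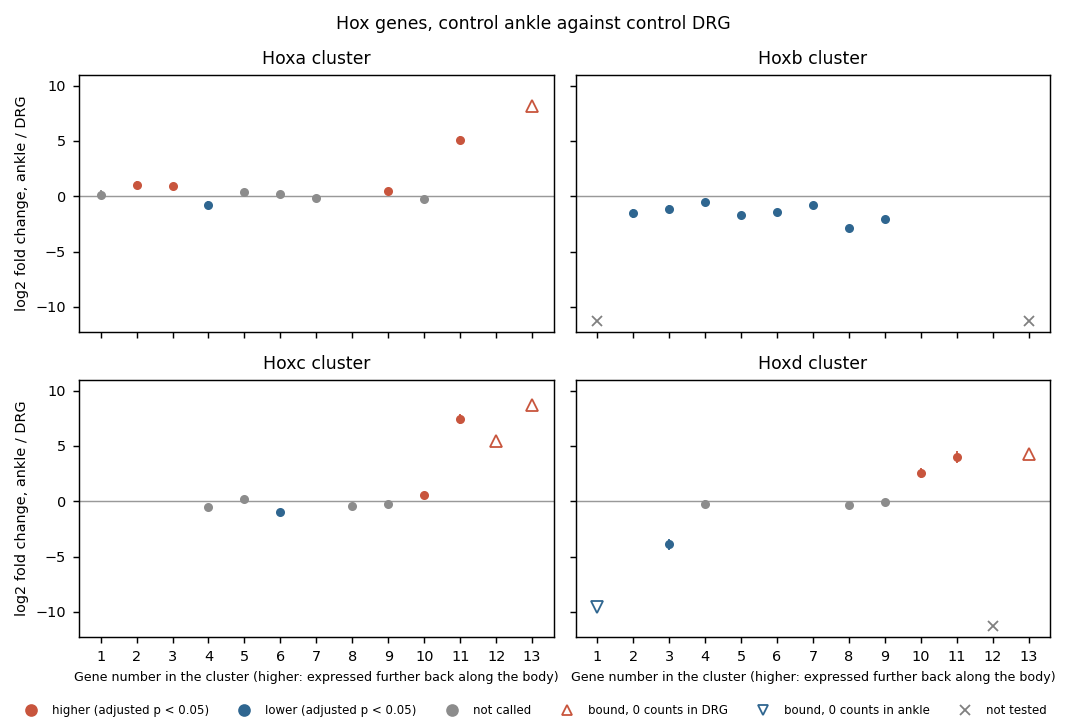
Log2 fold change, ankle over DRG, of each Hox gene by its number in the cluster, with bars of 1 SE, open triangles for bounds of genes with no counts in one tissue, grey points for genes not called and crosses for genes not tested. The tested genes numbered 11 to 13 lie at the top of the Hoxa, Hoxc and Hoxd clusters, and the 8 tested Hoxb genes lie below 0.

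Genes of the middle of the clusters were at closer levels, as in Hoxa9, which had 93.2, 67.99 and 79.2 CPM in the ankle, against 61.8, 58.7 and 56.03 in the DRG (log2 fold change 0.45, SE 0.12, adjusted p = 0.00623), and Hoxd9, which had 13.6, 15.8 and 12.7 CPM, against 17.2, 14.4 and 13.7 (adjusted p = 0.513). All 8 tested Hoxb genes were lower in the ankle, from -0.49 for Hoxb4, a call lost under 8 alternatives, to -2.86 for Hoxb8 on the log2 scale. Hoxb8 had 2.29, 2.204 and 1.15 CPM in the ankle, against 15.2, 14.6 and 12.5 in the DRG (log2 fold change -2.86, SE 0.25, adjusted p = 6.21e-06). Hoxd1, which shapes nociceptor connections in mouse, had no ankle count, against 27.4, 24.2 and 28.96 CPM in the DRG, at least 769-fold lower. Several Hox genes share exon bases with neighbours or antisense genes, 62.8% of them in Hoxd3 and 34.98% in Hoxa11, and without the strand setting their reads cannot be told apart.

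Of 9 limb regulators, 8 were higher in the ankle and 7 at least 8-fold. Pitx1, which gives the hind limb its identity, had 17.5, 11.7 and 10.7 CPM in the ankle, against 0.124, 0.147 and 0.0654 in the DRG (log2 fold change 6.78, SE 0.36, adjusted p = 2.02e-07), and Tbx4, the hind limb T-box factor, 14.8, 12.96 and 11.5 CPM, against 0.743, 0.639 and 0.981 (log2 fold change 4.07, SE 0.23, adjusted p = 2.98e-07). Tbx5, its fore limb counterpart, was detected too, at 0.915, 1.12 and 1.67 CPM, with no DRG count. Prrx1, a factor of limb mesenchyme, had 168, 157 and 179.9 CPM, against 13.3, 14.1 and 7.39 (log2 fold change 3.84, SE 0.23, adjusted p = 3.28e-06). Msx2, a factor of limb buds and of hair, had 5.77, 14.5 and 25.9 CPM, against 0.0619, 0.0983 and 0.262, and Hoxc13, which also controls hair keratins, 12.3, 22.5 and 27.5 CPM. Both were lowest in ankle control 1 and highest in ankle control 3, as the hair follicle genes were. Shox2 was lower in the ankle, at 21.1, 21.8 and 22.3 CPM, against 30.6, 27.9 and 29.5 (log2 fold change -0.43, SE 0.10, adjusted p = 0.00243).

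Stress and hormone response genes set 1 joint apart. Of 8 immediate early genes, those switched on within minutes of a stimulus, 5 were higher in the ankle, or 3 without DRG control 1 or DRG control 2. Fos had 19.1, 218 and 71.7 CPM in the ankle, against 6.88, 7.47 and 11.9 in the DRG (log2 fold change 3.58, SE 1.07, adjusted p = 0.0325), and its adjusted p reached 0.0986 over the alternatives. Of 10 glucocorticoid-induced genes, 6 were higher. Sgk1, a kinase, had 136, 303 and 195 CPM in the ankle, against 32.2, 30.8 and 37.7 in the DRG (log2 fold change 2.65, SE 0.32, adjusted p = 0.000392), and Fkbp5, a partner of the glucocorticoid receptor, 52.5, 182 and 48.6 CPM, against 60.1, 55.1 and 71 (adjusted p = 0.405). Ankle control 2 was the highest joint for Fos, Sgk1, Fkbp5 and Tsc22d3. Without it, 5 immediate early genes and 7 glucocorticoid-induced genes were called higher, and the mean sums were 2.16-fold and 1.77-fold those of the DRG, in place of 3.12-fold and 2.52-fold. The same joint had the highest neutrophil, osteoclast and B cell sums. Without it, the counts of osteoclast and B cell genes called, 6 and 11 higher and 1 lower in each, were those given above.

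Of 12 mitochondrial genes tested, 5 were lower in the ankle, a share near the 38.9% of all genes tested, and none passed 8-fold. Without ankle control 2, 4 were lower and 2 higher. mt-Co1, a subunit of the terminal oxidase, had 11384, 7814 and 9290.3 CPM in the ankle, against 14026, 12129.8 and 12823 in the DRG (log2 fold change -0.45, SE 0.14, adjusted p = 0.0162), and mt-Nd1 3129, 2207 and 2780.3 CPM, against 3212, 2689.7 and 2768 (adjusted p = 0.532). With upper quartile scaling 3 were called lower. mt-Atp6 and mt-Co3 had 1354 and 1604 ankle counts, against 851372 for mt-Co1, so this counting recorded the genes of 1 genome very unequally.

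The 3 ankle and 3 DRG libraries of the same series taken 8 h after monosodium urate (MSU) crystals, which used other samples, gave the tissue difference again for most genes. Of 14357 genes called in the controls and tested there, 11754 (81.9%) were called in the same direction. Of those at least 8-fold lower, 1615 of 1792 tested were so in the MSU libraries, and of those at least 8-fold higher, 1301 of 1948. Skin, bone and nerve lists kept their direction in sums, with 6702, 6295 and 4532 CPM of differentiated epidermis in the ankle, against 12.3, 16.5 and 16.9 in the DRG, and 65.8, 82.6 and 70.4 CPM of neuronal genes in the ankle, against 9209, 9616 and 9722 in the DRG. The muscle difference was not reproduced, and the direction of its mean sum depended on 1 ganglion library. The 12 genes of any fibre type summed to 1324, 1718 and 1644 CPM in the MSU ankles, against 8035, 893 and 862 in the MSU ganglia, and none was called higher in the ankle. The first of these ganglion libraries held more muscle transcript than any joint, and the others less than every MSU joint. The mean sum was 1562 CPM in the MSU ankles, against 3263 in the MSU ganglia, or 878 without that library, and no fit without it was made.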

How the data were processed

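Bulk RNA-seq of 18 libraries (3 tissues, PBS or MSU, 3 libraries per group) was deposited as raw read counts per Ensembl gene, 1 table of 55359 genes per tissue. For the deposited counts, HISAT2, HTSeq 0.11.3, DESeq2 and mm39 are named, per the submitters' processing notes, without roles. The annotation and the strand setting are not given in the sources used here. Libraries were prepared with the VAHTS Universal V6 kit, per the labels' protocols. Columns were matched to samples by the numbers in the labels. Names and exon lengths came from GENCODE M21 (52083 identifiers, 94.1%), without coordinates. Genes without a name there stayed in library sizes and tests.

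From the counts, the 6 control libraries were fitted with edgeR 4.0.16 (R 4.3.3; TMM scaling, robust quasi-likelihood test, filterByExpr with a minimum count of 10 and a minimum total of 15) with Benjamini-Hochberg adjustment over the whole table and a threshold of 0.05. Fold changes are ankle over DRG, CPM uses the TMM-scaled library size, and TPM the exon length. The SE is the log2 fold change over the root of its F statistic. On simulated counts for 16763 genes of this comparison, the fit recovered 77.8% of 2-fold and 97.0% of 8-fold changes. The simulated counts gave 191 calls, of which 8.38% were false. The 6 control libraries gave calls for 80.9% of their genes, and recovery with so many changed genes was not tested. Exact permutation of 3 against 3 libraries cannot give a p below 0.1, so single values are described without one.

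Members and marker lists were chosen with earlier results of these data known. The genes named are the 15 largest and 15 smallest fold changes among genes called, not overlapping between tissues and at 20 CPM or more in the higher one, the 20 most abundant genes per tissue, the first 4 genes of each list, and all Hox, limb, neurofilament and sex-linked genes and members of lists of up to 6. Other list members that are named, such as those that went against their list, were chosen after their values were seen. Alternatives were other scalings and filters, DESeq2 1.42.0, limma-voom (limma 3.58.1), a replicate block, all 18 libraries, the MSU libraries and each library left out. Counts of list members under them, and list sums without ankle control 2 or 1 MSU ganglion library, were added after seeing the data. Some genes that this rule names are not reported here.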

Additional observations from a re-analysis of the deposited data

How the results depend on the processing

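Over every alternative run, the number of genes called higher in the ankle was 7026 (MSU libraries) to 9003 (no count filter), against 7879, and of genes called lower 6742 (upper quartile scaling) to 8170, against 7314. Leaving out 1 library gave 7424 to 7999 higher and 7005 to 7529 lower, with 2201 to 2530 at least 8-fold higher and 1978 to 2060 at least 8-fold lower, against 2290 and 1919. A replicate block gave 7705 and 7143. The block used the replicate numbers of the titles. Libraries of the same title number did not deviate together (r = 0.021, -0.112 and -0.0087), and none correlated best with its own number. The sample descriptions number the libraries otherwise and share 1 number, 2, between the tissues (r = 0.092), so that no block could be fitted on them. That pair, ankle control 1 and DRG control 2, had the highest r of either library with the other tissue. Whether libraries of the 2 tissues came from 1 animal cannot be told from these values or the labels. Upper quartile scaling moved the median of all genes to 0.21. The median neuronal level of the ankle, 0.282% of that of the DRG, was 0.125% in the MSU libraries, 0.356% with total count scaling and 0.904% as a ratio of summed CPM, and 0.237 to 0.331% with 1 library left out. The median myelin level, 8.48%, was 3.89, 10.7 and 14.9% under the same 3, and 7.66 to 9.55% with 1 library left out. The neuronal to myelin ratio, 5.95% of the DRG ratio, was 12.1% in the MSU libraries and 0.793% with geometric means, and 5.36 to 6.96% with 1 library left out. The cause was not tested. Of the 387 list members called, 355 kept their call in every alternative on the control or all 18 libraries, 32 lost it in at least 1, and none reversed. Of the 64 not called, 31 gained a call in at least 1. Levels under 3 counts, in the ankle 0.0687 to 0.192 CPM on the TMM-scaled library size, could not be told from 0. The 3 libraries per tissue limit every test.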
